A study of Caenorhabditis elegans with 6 samples.

Results

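The genes described here are the cytochrome P450 genes and the flavin monooxygenase genes of *C. elegans*, taken as every gene of the deposited count table whose name is *cyp-* followed by a number or *fmo-* followed by a number. There were 80 of them among 20362 genes, 75 P450 genes and 5 *fmo* genes. *daf-9* also encodes a P450, but its name does not follow the pattern and it is given further down with its pathway. After a filter on low counts 66 of the 80 genes were tested (61 *cyp* and 5 *fmo*), and the other 14 had no more than 16 counts in any library.

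Counts of poly(A) RNA from whole nematodes were compared between the wild-type strain N2 (WT, 3 libraries) and the strain *grh-1* OEx line 1 (3 libraries). This strain carries the coding sequence of *grh-1*, a Grainyhead transcription factor, fused to *gfp* under the heat shock promoter *hsp-16.2p*, and was made by bombarding an *unc-119*-deficient strain. It is a single transgenic line, and the nematodes received no heat shock. In both groups eggs were kept for 64 h at 20 °C on *E. coli* OP50, and the resulting young adults for a further 48 h, so that RNA came from synchronized adults. The labels number the samples of each group as replicates, and the authors describe them as independent biological samples.

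Cytochrome P450 enzymes are heme proteins, mostly of the endoplasmic reticulum, that insert oxygen into lipids, steroids, fatty acids and foreign compounds, with electrons from the P450 reductase EMB-8. In *C. elegans* the *cyp* genes form large families, many of them in tandem arrays. The *cyp-35* genes are known for induction by xenobiotics, mainly in the intestine, and the *cyp-31A* genes for making the lipid layer of the eggshell. Flavin monooxygenases oxidize nitrogen and sulfur in small molecules with a flavin cofactor. FMO-2 is a target of the hypoxia factor HIF-1 and is required for the long life of nematodes under a hypoxic response or dietary restriction.

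The libraries held 14409044 to 25535026 counts each, and the first principal component (51.4% of the variance) set WT replicate 3 apart from the other 5 libraries. The summed level of 12 sperm markers reached 169 CPM in WT, against no more than 20.5 CPM without WT replicate 3 and 11.4 to 24.6 CPM in *grh-1* OEx. *unc-119* was 75.2 ± 2.41 CPM in *grh-1* OEx, against 20.1 ± 1.59 in WT (SD, n = 3 each). For *grh-1* itself the values were 7.96 ± 1.61 and 5.60 ± 0.589 CPM, a log2 fold change of 0.51 (SE 0.21, adjusted p = 0.709). CPM are counts scaled to a common library size with TMM factors, and a log2 fold change is *grh-1* OEx minus WT throughout. Values of single libraries are given in the order of replicates 1, 2 and 3.

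To see which of these genes the nematodes used at this age, levels were compared between genes per kilobase of transcript. *cyp-35A2*, a xenobiotic-induced gene that also takes part in fat storage, was highest at 149 CPM per kb over the 6 libraries, followed by *cyp-31A5* (115.2), *cyp-31A2* (112) and *cyp-31A3* (70.4). CYP-31A2 and CYP-31A3 make lipids of the permeability barrier of the eggshell. By CPM, the 4 most abundant genes held 47.9% of all counts of the group. Next came *cyp-35C1* at 47.0 CPM per kb, *cyp-44A1*, which encodes a mitochondrial P450, at 41.2, *cyp-13A5* at 29.7, *cyp-35A3* at 25.9, *fmo-4* at 21.7 and *cyp-25A2* at 16.19. In all 17 genes lay over 10 CPM per kb, 35 between 1 and 10 and 28 under 1. The leading positions of *cyp-35A2*, *cyp-31A5* and *cyp-31A2* were not separated in every library, since *cyp-35A2* ran from 117 to 181 CPM per kb, *cyp-31A5* from 103 to 131 and *cyp-31A2* from 99.8 to 141. *cyp-31A5* overlaps exons of another protein-coding gene on the opposite strand. Since the library kit does not mark the strand, reads from the shared stretch cannot be told apart, and its length was not measured. *cyp-44A1* overlaps exons of a protein-coding gene on its own strand. In all, 24 genes of the group have exons that overlap another gene, noncoding genes included.

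**Figure D1:**
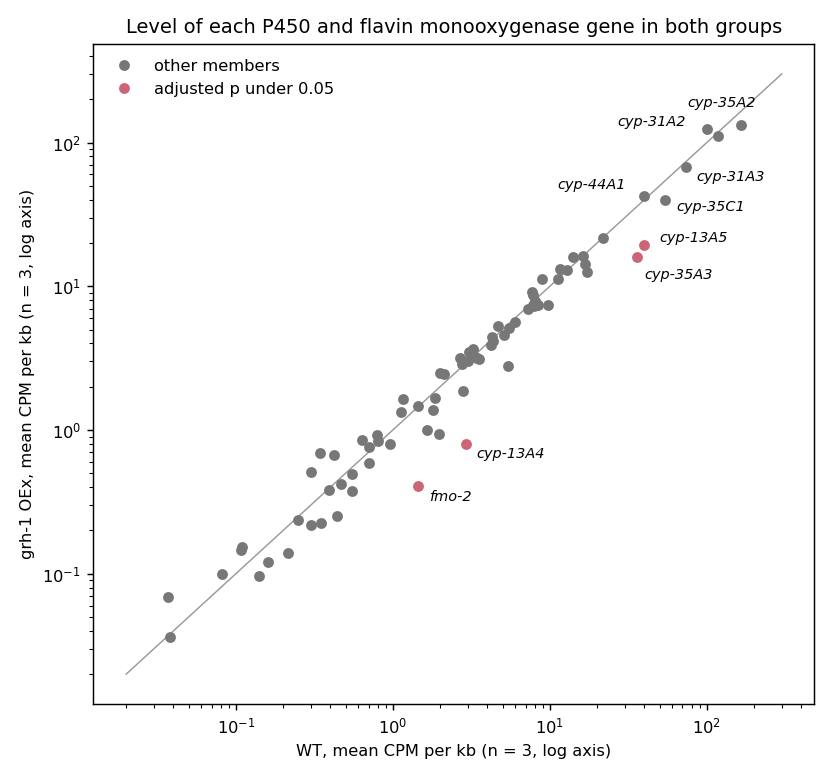
Mean level of each P450 and flavin monooxygenase gene in WT (x axis) and *grh-1* OEx (y axis), in CPM per kilobase on log axes, n = 3 libraries each. The line marks equal levels, *cyp-25A6* and *cyp-35B3* are not drawn because a group mean was 0, and the 4 genes in red lie below the line.

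With edgeR's quasi-likelihood test across all 13736 genes tested, 4 of the 66 genes were lower in *grh-1* OEx at an adjusted p under 0.05 (6.06%), where 0.298% of all genes were lower. They were *cyp-13A4*, *cyp-13A5*, *cyp-35A3* and *fmo-2*, and they fell 2.07-fold to 3.60-fold. None of the 66 was higher, where 0.146% of all genes were. DESeq2 also found these 4 lower and none higher, against 0.662% lower and 0.446% higher over all genes. With limma-voom the same 4 were lower and none higher, where 44 of the 13736 genes were lower and 17 higher. At an unadjusted p under 0.05, 10 were lower (15.2%, all genes 4.44%) and 2 were higher (3.03%, all genes 2.18%). The libraries of both groups did not overlap for 11 of the 66 in the lower direction (16.7%, all genes 6.14%) and for 4 in the higher (6.06%, all genes 3.39%). The RNA is of whole nematodes, so that fewer cells of a type and less RNA per cell cannot be told apart in any of these values.

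The median log2 fold change of the 66 genes was -0.07 (quartiles -0.25 and 0.15), where that of all genes tested was -0.01 (quartiles -0.14 and 0.11). Without WT replicate 2 the median of the group was 0.092, so that its sign rests on that library. Values below 0 were seen for 37 genes (56.1%), against 52.4% of all genes. The counts of all 80 genes added up to 1401 ± 97.3 CPM in WT against 1270 ± 39.7 in *grh-1* OEx (SD, n = 3 each). Without the 4 lower genes the sums were 1271 ± 83.9 and 1210 ± 37.6 CPM.

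**Figure D2:**
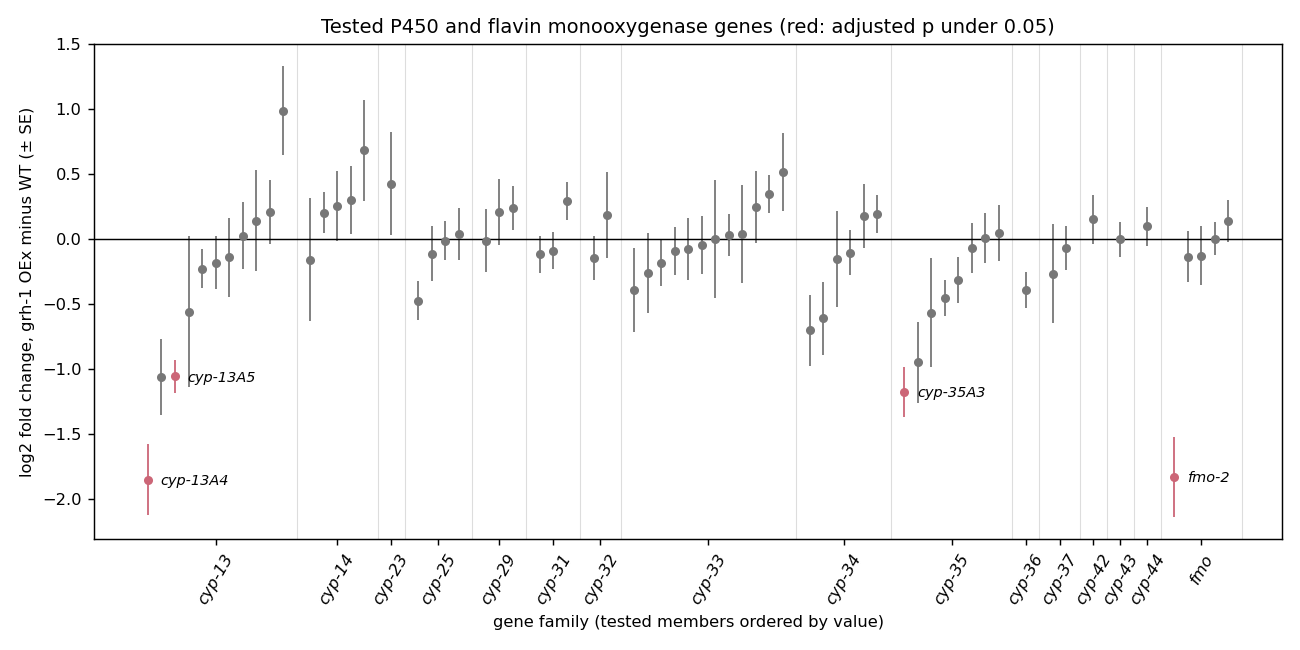
Log2 fold change (*grh-1* OEx minus WT) of the 66 tested genes, grouped by family and ordered by value within each, with bars of 1 SE from the edgeR fit over 3 libraries a group. The 4 genes in red passed the adjusted test, and of these *cyp-13A4* and *fmo-2* lie lowest, at -1.85 and -1.83.

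The *cyp-13A* genes on chromosome II held 2 of the 4 lower genes. *cyp-13A5* (WBGene00011672) lies on WBcel235 chromosome II from 9798276 to 9800363 on the minus strand, with up to 6 exons. WT libraries held 72.2, 67.8 and 60.4 CPM of it, and *grh-1* OEx libraries 30.2, 35.05 and 31.2 CPM. Every WT library was well above every *grh-1* OEx library. The means were 66.8 ± 5.96 and 32.2 ± 2.54 CPM, a log2 fold change of -1.05 (SE 0.13, adjusted p = 0.0073), or 2.07-fold lower. It was the most abundant of its family in both groups.

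*cyp-13A4* (WBGene00011671), its neighbour in the array at 9795848 to 9797740 on the minus strand, also has up to 6 exons and was far less abundant. Its level was 4.86, 5.14 and 3.67 CPM in WT against 1.06, 1.58 and 1.13 CPM in *grh-1* OEx, from 18 to 94 counts a library. The groups were widely separated, with all *grh-1* OEx libraries under the lowest WT library. From 4.56 ± 0.782 to 1.26 ± 0.284 CPM it fell 3.60-fold (log2 fold change -1.85, SE 0.27, adjusted p = 0.0195).

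*cyp-13A7*, known for induction by the drug rifampicin, lies on the other side of *cyp-13A5* and on the opposite strand. In WT it stood at 3.31, 3.77 and 2.41 CPM and in *grh-1* OEx at 1.203, 1.89 and 1.44 CPM. The groups did not overlap here either, and the log2 fold change was -1.06 (SE 0.29), but the adjusted p of 0.325 did not pass. *cyp-13A6*, between *cyp-13A5* and *cyp-13A7*, had a log2 fold change of 0.14 (SE 0.39) at 1.16 and 1.26 CPM. *cyp-13A2*, the second most abundant of the array, was 26.5 ± 3.57 CPM in WT against 22.7 ± 2.60 in *grh-1* OEx, with overlapping libraries (-0.22, SE 0.15, adjusted p = 0.937). *cyp-13A1*, with 3 to 13 counts a library, had among the largest spreads of the group, with a CV of 51.2% in WT and 65.9% in *grh-1* OEx.

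Within each library the count of *cyp-13A5* was divided by that of *cyp-13A2*, which does not depend on library scaling. The ratio was 2.38, 2.62 and 2.60 in WT against 1.53, 1.41 and 1.34 in *grh-1* OEx. It was thus lower in all *grh-1* OEx libraries, and the pair was chosen after its values were seen, so that no test is given. The summed level of the 11 *cyp-13A* genes was 110 ± 12.4 CPM in WT against 66.3 ± 6.11 in *grh-1* OEx. *cyp-13A5* alone held 66.8 CPM of the sum in WT and 32.2 CPM in *grh-1* OEx, so that the sum mostly follows that gene. Those outside the array included *cyp-13A11* on chromosome III, at 0.405, 0.547 and 0.650 CPM in WT against 1.11, 1.12 and 1.00 in *grh-1* OEx. Its libraries did not overlap and the log2 fold change was 0.99 (SE 0.34), the highest of the 66, but from 6 to 23 counts a library it did not pass (adjusted p = 0.567). Both *cyp-13B* genes, on chromosome X, lay close to 0 (-0.18 and 0.21).

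In the *cyp-35* family the lower gene was *cyp-35A3* (WBGene00019565), a xenobiotic-inducible gene often used as a reporter of exposure. It lies on chromosome V from 4022619 to 4024473 on the plus strand, with up to 7 exons. The WT libraries gave 59.2, 62.3 and 47.8 CPM and those of *grh-1* OEx 23.3, 32.2 and 19.4 CPM. No library of *grh-1* OEx reached the lowest WT library. The mean fell from 56.4 ± 7.66 to 24.96 ± 6.56 CPM, 2.26-fold (log2 fold change -1.17, SE 0.19, adjusted p = 0.0326).

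*cyp-35A4*, further along on the same strand, was at 8.98, 8.04 and 7.01 CPM in WT against 3.90, 6.17 and 2.32 CPM in *grh-1* OEx. Here too the groups were apart, although the *grh-1* OEx libraries spread widely (CV 46.9%). The log2 fold change of -0.95 (SE 0.31) did not pass, with an adjusted p of 0.507. How reads that match several copies were counted is not given in the sources used here, so that the split between similar members of a family is uncertain. With the counts of *cyp-35A3* and *cyp-35A4* summed, a setting chosen after seeing the data, the log2 fold change was -1.14 and the adjusted p 0.0523.

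The most abundant gene of the family, *cyp-35A2*, was at 284, 292 and 223 CPM in WT against 198, 257 and 189 CPM in *grh-1* OEx. The highest *grh-1* OEx library lay above the lowest WT library. Its log2 fold change was -0.31 (SE 0.18, adjusted p = 0.879). Within libraries the ratio of *cyp-35A3* to *cyp-35A2*, also a pair chosen after seeing the values, was 0.208, 0.213 and 0.214 in WT against 0.118, 0.125 and 0.103 in *grh-1* OEx. The ratio hardly varied among WT libraries and was lower in every *grh-1* OEx library.

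*cyp-35C1*, on the same chromosome, was at 90.8, 88.7 and 71.5 CPM in WT against 59.98, 65.96 and 57.2 in *grh-1* OEx. The groups did not overlap, and the log2 fold change of -0.45 (SE 0.14) did not pass (adjusted p = 0.403). *cyp-35A5* (-0.07), *cyp-35B1*, a target of the insulin pathway factor DAF-16 (0.01), and *cyp-35D1*, whose product hydroxylates the anthelmintic thiabendazole (0.05, named after its value was seen), had overlapping libraries. *cyp-35A1* was not tested, with 9, 12 and 13 counts in WT against 6, 9 and 5 in *grh-1* OEx. Summed over the 5 *cyp-35A* genes the level was 343 ± 46.3 CPM in WT against 255 ± 45.8 in *grh-1* OEx, and the 4 tested had a median log2 fold change of -0.63, from -1.17 to -0.07.

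Among the flavin monooxygenase genes, *fmo-2* (WBGene00001477; chromosome IV, 10682524 to 10684385, plus strand, up to 5 exons) was the lower one and the least abundant. The WT libraries held 28, 48 and 59 counts and those of *grh-1* OEx 14, 12 and 12, which is 1.89, 2.62 and 2.74 CPM against 0.674, 0.612 and 0.753 CPM. All *grh-1* OEx libraries lay under all WT libraries. The mean fell 3.55-fold, from 2.42 ± 0.460 to 0.680 ± 0.0705 CPM (log2 fold change -1.83, SE 0.31, adjusted p = 0.0368). With so few counts the size of the change is less precise than for *cyp-13A5*. Without the filter on low counts *fmo-2* did not pass (log2 fold change -1.78, adjusted p = 0.0714), nor did it with a model term for replicate number.

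The other 4 *fmo* genes had log2 fold changes from -0.13 to 0.14 and overlapping libraries. *fmo-1*, which lies 20.7 kb from *fmo-2* on the same strand, was 6.65 ± 0.402 CPM in WT against 6.06 ± 1.02 in *grh-1* OEx. *fmo-4*, an enzyme of the hypodermis and the most abundant of the 5, was 40.3 ± 4.62 and 40.3 ± 1.83 CPM (log2 fold change 0.00, SE 0.13). *fmo-3* stood at 0.14 and *fmo-5* at -0.12, the latter with 13.2 CPM in WT replicate 3 against 8.24 and 7.60 in the other WT libraries. The ratio of *fmo-2* to *fmo-1* counts, chosen after the values were seen, was 0.298, 0.369 and 0.421 in WT against 0.117, 0.0851 and 0.145 in *grh-1* OEx.

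**Figure D3:**
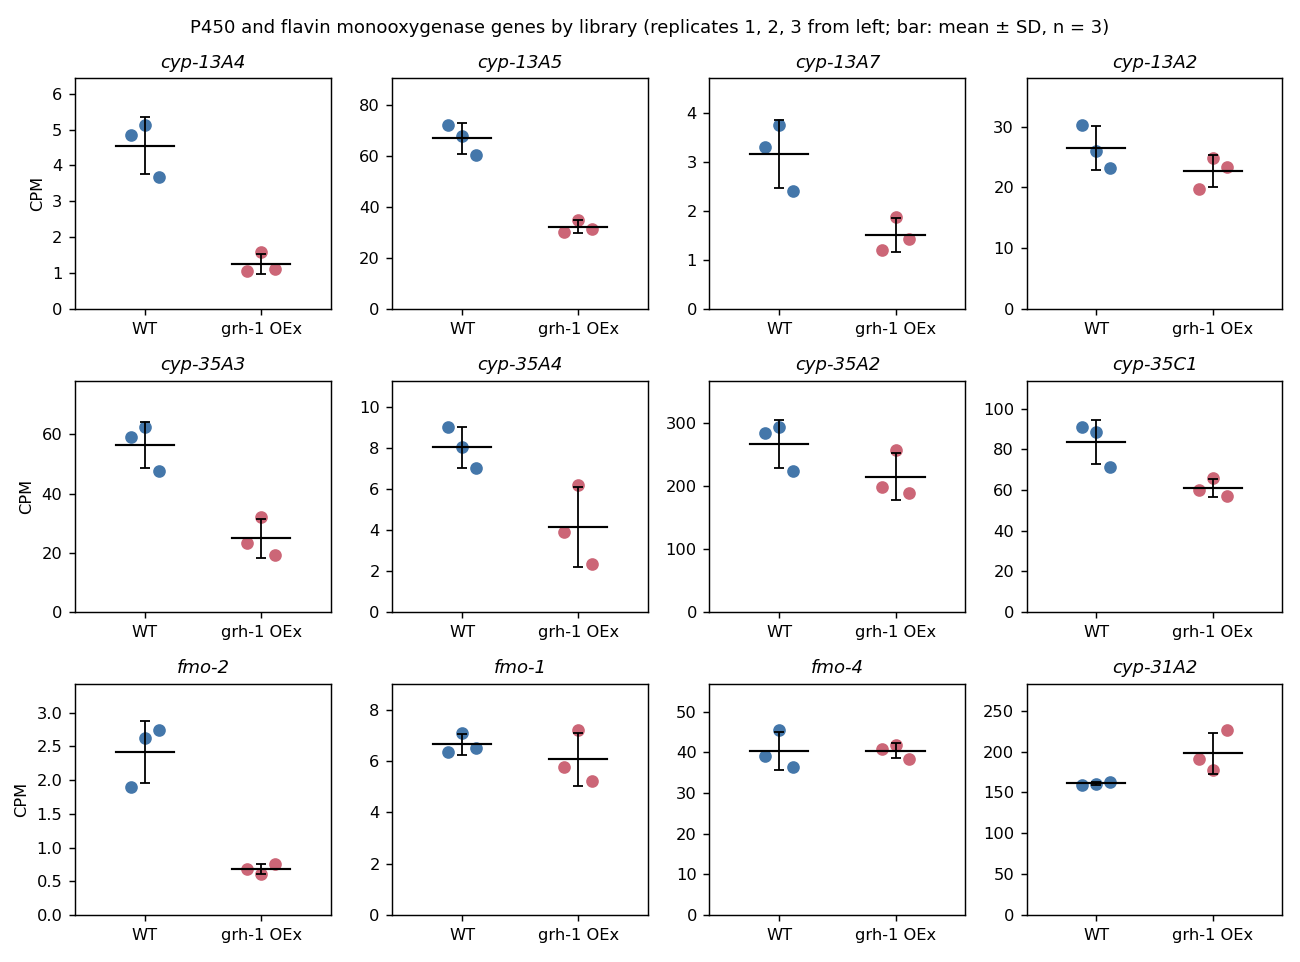
CPM of 12 genes in each library (points, replicates 1, 2 and 3 from the left), with the mean and SD of 3 libraries a group, on axes that start at 0. For *cyp-13A4*, *cyp-13A5*, *cyp-35A3* and *fmo-2* all *grh-1* OEx libraries lie below all WT libraries, while for *cyp-13A2*, *cyp-35A2*, *fmo-1* and *fmo-4* the groups overlap.

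Whether the 4 genes passed depended on which libraries were used. For *fmo-2* it also depended on the filter and on a model term for replicate number. For *cyp-35A3* it also depended on whether its counts were summed with those of *cyp-35A4*. All 4 passed without WT replicate 1 and also without WT replicate 3, the library that stood apart, where their log2 fold changes ran from -1.99 to -1.12. None passed without WT replicate 2 or without any one of the *grh-1* OEx libraries. Calls over all genes moved with these settings too. Against 41 lower genes with all libraries, 212 were lower without WT replicate 1 and 94 without WT replicate 3. There were 21 without WT replicate 2, and 12, 10 and 23 without *grh-1* OEx replicates 1, 2 and 3. Without WT replicate 2 the adjusted p was 0.114 for *cyp-13A4*, 0.0707 for *cyp-13A5*, 0.154 for *cyp-35A3* and 0.183 for *fmo-2*. Without *grh-1* OEx replicate 1 it was 0.245, 0.121, 0.340 and 0.340 in the same order. Without *grh-1* OEx replicate 2 it was 0.0976, 0.0585, 0.0548 and 0.281, and without *grh-1* OEx replicate 3 it was 0.116, 0.0535, 0.137 and 0.126. The log2 fold changes moved little, from -2.05 to -1.70 for *cyp-13A4*, -1.12 to -0.95 for *cyp-13A5*, -1.40 to -1.01 for *cyp-35A3* and -1.93 to -1.71 for *fmo-2* over all settings.

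**Figure D4:**
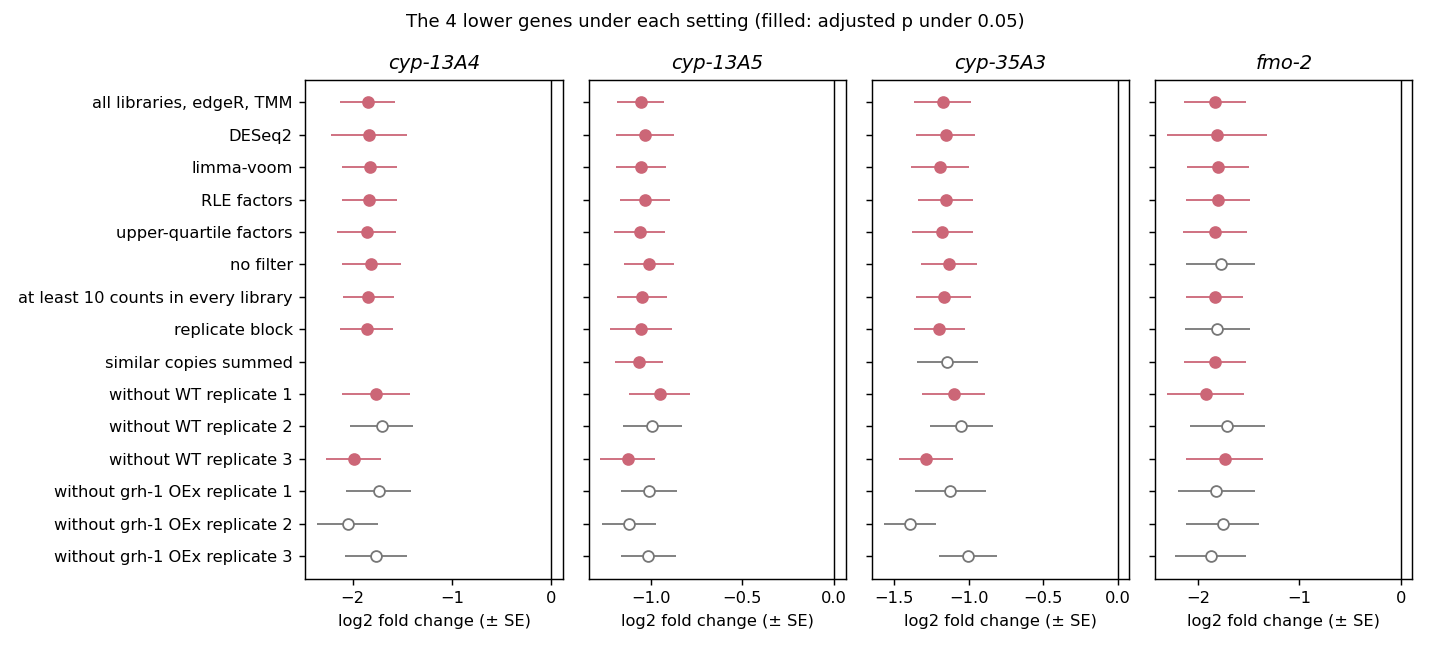
Log2 fold change (*grh-1* OEx minus WT) with bars of 1 SE for the 4 lower genes under each setting, filled where the adjusted p was under 0.05. All points lie left of 0, which leaving out a library could hardly change, as the groups do not overlap for these genes. Leaving out WT replicate 2 or any *grh-1* OEx library leaves all 4 open symbols.

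The 3 *cyp-31A* genes were among the most abundant of the group. *cyp-31A2* was at 159.5, 161 and 163 CPM in WT against 190, 177 and 226 CPM in *grh-1* OEx. The WT libraries were close together and all *grh-1* OEx libraries lay above them, with a log2 fold change of 0.30 (SE 0.14) that did not pass (adjusted p = 0.798). *cyp-31A3* (-0.12, SE 0.14) and *cyp-31A5* (-0.09, SE 0.14) overlapped between groups. With the counts of *cyp-31A2* and *cyp-31A3* summed, a setting chosen after seeing the data, the log2 fold change was 0.14 (SE 0.15) and did not pass. The 3 genes together held 388 ± 21.2 CPM in WT against 409 ± 41.4 in *grh-1* OEx.

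The remaining families held no gene past the adjusted test and few at an unadjusted p under 0.05. In *cyp-25* this was *cyp-25A1*, at 31.1, 29.8 and 23.4 CPM in WT against 21.4, 18.1 and 21.4 in *grh-1* OEx (log2 fold change -0.47, SE 0.15, adjusted p = 0.461). The next gene, *cyp-25A2*, stood at -0.01 (SE 0.15). In *cyp-34* it was *cyp-34A5* (2.51 ± 0.345 and 1.54 ± 0.248 CPM, -0.70, SE 0.27, adjusted p = 0.686), while *cyp-34A8*, the most abundant of that family, and *cyp-34A9*, also known as a gene downstream of DAF-16, were at 0.20 and 0.18. Of the 12 *cyp-33* genes tested 6 were below and 6 above 0, and the one with the smallest p was *cyp-33C8* (14.1 ± 1.44 and 17.9 ± 1.44 CPM, 0.35, SE 0.15, adjusted p = 0.725).

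*cyp-36A1*, which acts downstream of HIF-1 in the control of behaviour, was at 17.8, 16.5 and 15.97 CPM in WT against 13.3, 12.2 and 12.8 in *grh-1* OEx. Its groups did not overlap and differed by -0.39 (SE 0.14, adjusted p = 0.582), in a gene whose exons overlap those of a protein-coding gene on the other strand. *cyp-29A3* and *cyp-33E2*, whose products make eicosanoids from polyunsaturated fatty acids, were at 0.21 (SE 0.25) and -0.09 (SE 0.18). *cyp-29A2* (0.24), *cyp-42A1* (0.16), *cyp-44A1* (0.10), *cyp-33A1* (0.03), *cyp-37A1* (-0.07) and *cyp-37B1* (-0.26) had overlapping libraries as well.

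The 5 *cyp-14A* genes centred on a log2 fold change of 0.26 (median), with 4 above 0 and none past an unadjusted p of 0.05. *cyp-14A5* was the most abundant of them (22.2 ± 4.13 and 25.6 ± 1.29 CPM, 0.21, SE 0.16), and *cyp-14A4* had the smallest p (0.631 ± 0.230 and 0.999 ± 0.162 CPM, 0.69, SE 0.39, adjusted p = 0.874). *cyp-14A3* and *cyp-33D1* were among the genes with the widest spread between libraries of a group, with 7 to 21 and 6 to 18 counts. Over the 66 genes the median CV was 16.3% in WT and 13.8% in *grh-1* OEx, close to the 14.95% and 13.9% of all genes. WT replicate 3 was the lowest WT library for 37 of the 66 and the highest for 14.

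The array positions show how the values ran along the chromosomes. The 8 *cyp-13A* genes of chromosome II start within 26.4 kb, in the order *cyp-13A1* to *cyp-13A8*. Of the 6 tested, 5 were below 0, as were 52.4% of all genes, and 2 were lower at an adjusted p under 0.05, where 0.298% of all genes were. *cyp-13A6*, named like *cyp-13A2* for its position after its value was seen, stood at 0.14 between *cyp-13A5* at -1.05 and *cyp-13A7* at -1.06. The 3 tested genes in the 20 kb before the array had log2 fold changes from -0.32 to 0.07.

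On chromosome V a stretch of 95.3 kb from *cyp-35A5* to *cyp-35A4* holds 13 genes of the group. Of these 10 were tested and 7 were below 0, as were 52.4% of all genes. The 5 genes from *cyp-35A5* to *cyp-34A4*, with *cyp-35B3* not tested, ran from -0.57 to 0.01, and *cyp-35A3* and *cyp-35A4* at the other end were at -1.17 and -0.95. The 7 tested genes of other kinds in between were all below 0, from -0.63 to -0.01. Of them 4 had an unadjusted p under 0.05 without passing the adjusted test, where 4.44% of all genes were lower at that p. They include *nlp-29* (-0.63, SE 0.20, adjusted p = 0.44) and *nlp-28* (-0.52, SE 0.14, adjusted p = 0.33), which encode antimicrobial peptides of the epidermis and are named after their values were seen. Around *fmo-1* and *fmo-2* on chromosome IV, 11 other tested genes within 20 kb ran from -0.58 to 0.33. Of these 2 were lower at an unadjusted p under 0.05, and none passed the adjusted test. The 3 *cyp-33E* genes of the same chromosome, which start between 8612392 and 8645531, were at -0.09, 0.04 and -0.08.

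**Figure D5:**
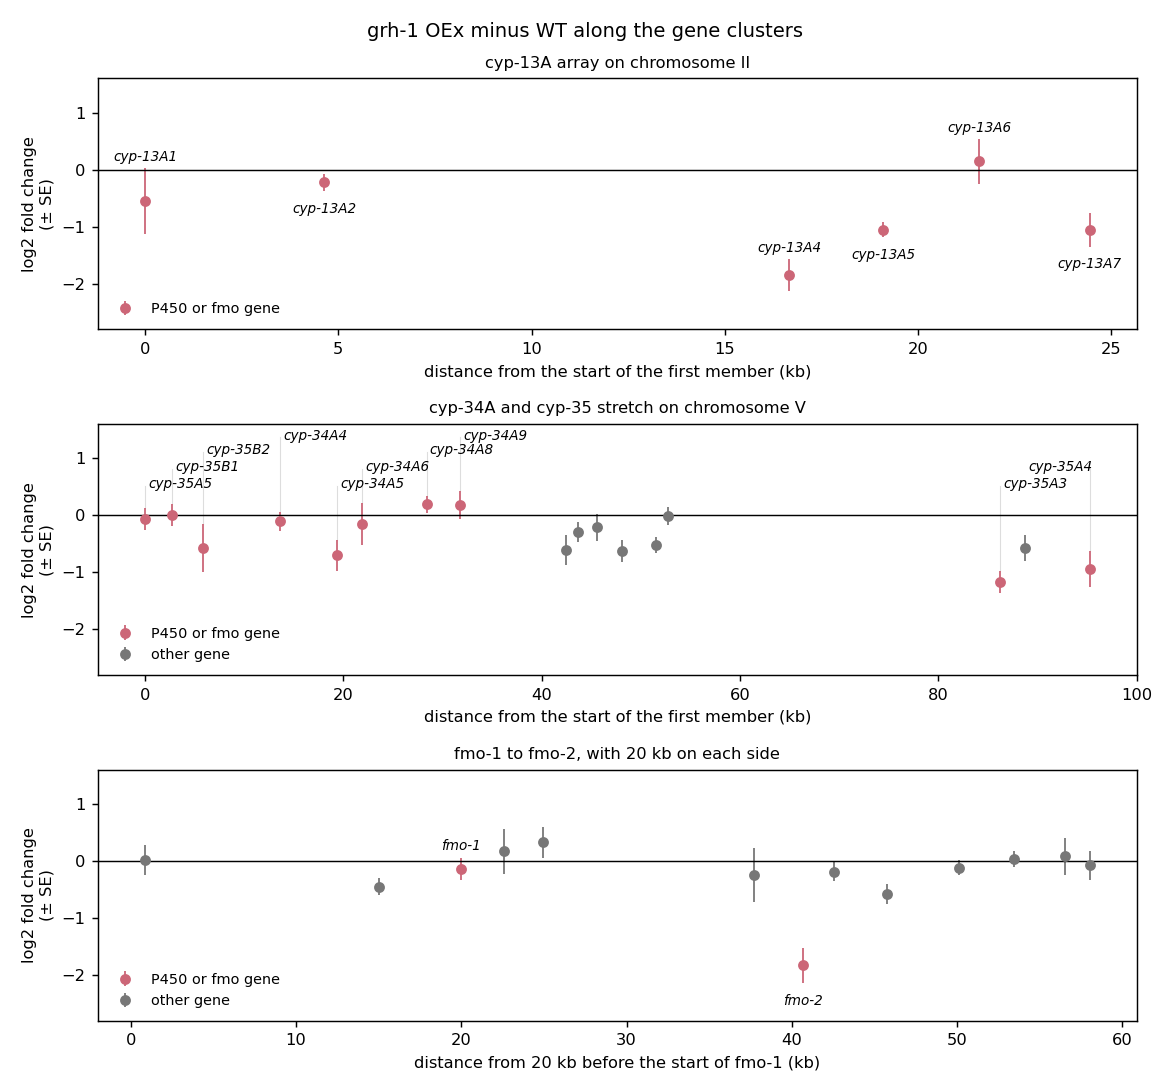
Log2 fold change (*grh-1* OEx minus WT, bars of 1 SE) of tested genes against distance in kilobases along the *cyp-13A* array, the *cyp-34A* and *cyp-35* stretch, and the *fmo-1* and *fmo-2* region, with P450 and *fmo* genes in red and other genes in grey. *cyp-13A6* lies at 0.14 between 2 lower genes, the grey points of the second panel all lie below 0, and *fmo-2* lies at -1.83 with *fmo-1* at -0.13.

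Genes that work with these enzymes or regulate them were taken from 4 lists. Of 40 genes listed 38 were tested, and none was called at an adjusted p under 0.05 by edgeR or had an unadjusted p under 0.05. The electron donors *emb-8* (0.05), *cytb-5.1* (0.02) and *cytb-5.2* (0.01) differed by less than their SE. In the synthesis and sensing of dafachronic acid, the steroid hormone of nematodes, *daf-9* was at -0.02 (SE 0.33), the upstream oxygenase *daf-36* at -0.31 (SE 0.15), *dhs-16* at 0.43 (SE 0.35) and the receptor *daf-12* at 0.04. Regulators of xenobiotic and hypoxia genes ran from -0.36 for *pqm-1* to 0.48 for *ahr-1*, with *hif-1* at -0.01, *nhr-49* at 0.01, *hlh-30* at -0.09 and *skn-1* at -0.03. The 13 eggshell and egg activation genes ran from -0.24 to 0.29.

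Markers of the tissues that make up the nematode were read beside these results, since many *cyp* genes are used in the intestine. Of 10 intestine markers all were detected, none passed the adjusted test and 1 was lower at an unadjusted p under 0.05. This was the protease gene *asp-1* (log2 fold change -0.53, SE 0.16, adjusted p = 0.44), with groups that did not overlap. The median log2 fold change of the 10 markers was -0.05. Their summed level was 13816 to 29948 CPM in WT, no more than 16555 without WT replicate 3, and 11435 to 15654 CPM in *grh-1* OEx. Most of that sum was the yolk protein gene *vit-2*, at 11190 to 26630 CPM in WT against 9279 to 13274 CPM in *grh-1* OEx (log2 fold change -0.63, SE 0.30). The other markers were at -0.58 (*cpr-1*), -0.35 (*act-5*, with groups that did not overlap), -0.19 (*pept-1*), 0.08 (*pho-1*), 0.09 (*vha-6*), 0.09 (*ges-1*), 0.16 (*elt-2*) and 0.27 (*ifb-2*). All 8 epidermis markers had log2 fold changes above 0, from 0.10 to 0.52, with a median of 0.29. Of these 1 was higher at an unadjusted p under 0.05 (*vha-5*, 0.52), and none passed the adjusted test. The sums were 352 to 490 CPM in WT and 476 to 598 CPM in *grh-1* OEx. No marker of muscle, neurons, oocytes or the germline had an unadjusted p under 0.05, with list medians from -0.07 to 0.04. Of the 12 sperm markers 9 were tested, with a median of -2.19, and 3 were lower at an unadjusted p under 0.05, none past the adjusted test. These are the markers whose sum was highest in WT replicate 3. The part of tissue makeup in the lower *cyp* and *fmo* values was not tested.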

How the data were processed

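Whole nematodes gave 3 WT and 3 *grh-1* OEx RNA libraries, grouped by genotype from the labels. The authors prepared libraries with a poly(A) kit that does not mark the strand, trimmed reads before alignment to Ensembl WBcel235 (STAR), and deposited raw counts per gene from featureCounts (Subread). Also named in the submitters' processing notes are FastQC and DESeq2, all without versions. Another deposited column, which the authors named width and which is of no sample, gave the transcript length used for CPM per kb. Columns of the authors' own comparison (log2 ratios, p-values and adjusted p-values) and 12 further columns of single samples (normalized counts and FPKM) were not used.

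Counts of all 20362 genes were fitted by glmQLFit and glmQLFTest of edgeR 4.0.16 (R 4.3.3), with TMM factors and group as the only term. The filter filterByExpr (minimum count 10, minimum total 15) kept 13736 genes, over which p-values were adjusted by Benjamini-Hochberg with a threshold of 0.05. Adjusted p-values of single genes come from this test unless another tool is named. The SE of a log2 fold change is its size divided by the square root of F. The biological coefficient of variation was 0.21, and within each group no library was a copy of another. Pairs across the groups were not compared in this way. P-values set the difference between the groups against the spread of libraries within a group, for these 6 libraries only. The steps were tested on simulated counts. Coordinates are those of the deposited table, and no sequences were used. Exon numbers and overlaps come from an Ensembl annotation of the same build, release 115. Only 5 of the 80 genes have the same start and end in both, so that for the others the gene models differ.

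The genes, the lists and the tests were chosen with earlier results of these data known. Genes were named if they passed the adjusted test, were among the 10 with the smallest p or the 10 with the highest CPM per kb, were *fmo* genes, led a family of 3 or more measured genes by level or by p, had a known role, or were among the 4 with the largest spread. The other genes were named after their values were seen, as neighbours in an array, low-count genes or markers. Alternatives were DESeq2 1.42.0, limma-voom (limma 3.58.1), upper-quartile and RLE factors, a filter of at least 10 counts in every library or none, a block for replicate number, similar copies summed (chosen after seeing the data) and each library left out in turn.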

Additional observations from a re-analysis of the deposited data

How the results depend on the processing

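The direction of *cyp-13A4*, *cyp-13A5*, *cyp-35A3* and *fmo-2* held in each of the alternatives run for them. For these genes all *grh-1* OEx libraries lay below all WT libraries, so that leaving out a library could hardly reverse it. The adjusted p ran from 3.02e-04 to 0.245 for *cyp-13A4*, 5.46e-08 to 0.121 for *cyp-13A5*, 2.91e-06 to 0.340 for *cyp-35A3* and 0.00661 to 0.340 for *fmo-2*, which also did not pass without the filter (0.0714). With the replicate number as a block, 3 of the genes were lower, and over all genes 42 were lower and 10 higher, against 41 and 20. The adjusted p of *fmo-2* was then 0.071. The deviations of same-numbered libraries had correlations of 0.11, -0.05 and -0.19 for replicates 1, 2 and 3. Those of other pairs ran from -0.35 to 0.30. With 3 libraries a group, these values cannot show whether same-numbered libraries share a batch. Summing similar copies (*cyp-13A4* to *cyp-13A7*, *cyp-35A3* with *cyp-35A4*, *cyp-31A2* with *cyp-31A3*) left 2 lower features, the *cyp-13A* sum and *fmo-2*.

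DESeq2 called 89 genes lower and 60 higher. Of the P450 and *fmo* genes, those higher at an unadjusted p under 0.05 numbered 1 under DESeq2, upper-quartile factors, at least 10 counts in every library and the block, against 2. Leaving out 1 library gave 0 to 4 of these genes lower at an adjusted p under 0.05, 6 to 11 lower and 0 to 3 higher at an unadjusted p, 10 to 212 of all genes lower and 1 to 41 higher. With 1 library left out a group has 2, and the spread is pooled over both groups. The median log2 fold change then ran from -0.11 to 0.092, the last without WT replicate 2, so that its sign is not stable.

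Values close to 0 changed sign, with the cause not tested. *cyp-25A2* was at 0.014 under DESeq2, 0.010 under limma-voom, 0.014 with RLE factors, 0.034 without a filter and 0.0037 with the replicate block, *cyp-33D1* at -0.0086 and *fmo-4* at -0.0039 with upper-quartile factors. Over the libraries left out in turn the ranges were -0.51 to 0.42 for *cyp-14A3*, -0.15 to 0.15 for *cyp-25A2*, -0.15 to 0.043 for *cyp-31A5*, -0.10 to 0.18 for *cyp-33A1*, -0.38 to 0.56 for *cyp-33D1*, -0.21 to 0.056 for *cyp-33E2*, -0.18 to 0.094 for *cyp-35A5*, -0.037 to 0.067 for *cyp-35B1*, -0.12 to 0.074 for *cyp-37A1*, -0.54 to 0.018 for *cyp-37B1*, -0.016 to 0.19 for *cyp-44A1*, -0.069 to 0.15 for *fmo-4* and -0.22 to 0.17 for *fmo-5*. Of the recomputed log2 fold changes of single genes, 473 kept their direction and side of the threshold, 19 no longer passed it and 29 changed sign. The planned sum of genes with near-identical proteins was not run, as no protein sequences were used here. Depth limits genes such as *fmo-2*, with 12 to 59 counts a library.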

Other observations

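Among the 14 genes too low to be tested, *cyp-33C2* had higher counts in every *grh-1* OEx library (11, 16 and 15) than in any WT library (7, 9 and 8), and *cyp-35A1* had lower CPM in every *grh-1* OEx library (0.289, 0.459 and 0.314) than in any WT library (0.608, 0.656 and 0.603). *cyp-33C1* had 1 count in each of the 6 libraries. *cyp-35B3* was seen as 1 read, in WT replicate 2, and *cyp-25A6* had 0 counts in all libraries. A count of 0 does not show that a gene was unused, since how reads matching several copies were treated is not given in the sources used here. These genes are named after their values were seen.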
